A study of Mus musculus with 8 samples.

Results

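The sialyltransferase genes are the enzymes that cap glycans with sialic acid. The 10 genes described here, St3gal1 to St3gal6, St6gal1, St8sia1, St8sia4 and St8sia6, were chosen by symbol from the 43629 genes of the count matrix, and were selected on the fall of St-named genes after JQ1 in these same libraries. Their JQ1 against DMSO values are therefore given as a description with no test. Of the 10, 8 passed edgeR's default filter on reads, a minimum count of 10 in at least 2 libraries of typical depth, and St8sia1 and St8sia6 did not. The counted genes held 20 St-named sialyltransferases in all. RNA came from a pair of Eμ-Myc mouse lymphoma lines of the B lineage, #1.2 and #1.1, on a C57BL/6 background. All 4 groups therefore share a Myc transgene driven by the immunoglobulin heavy chain enhancer, which is active in the B lineage. Each line was kept for 2 h in 250 nM JQ1, an inhibitor of the BET bromodomain proteins, or in its solvent DMSO. The groups are line 1.2 in JQ1, line 1.2 in DMSO, line 1.1 in JQ1 and line 1.1 in DMSO, each with 2 libraries, 8 in all. The labels name 2 lines and do not say whether either is a clone. Whether replicates are separate cultures is not stated either, so every p-value rests on the scatter among libraries, which may be technical.

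Sialyltransferases work in the Golgi, where they move sialic acid from its activated donor, CMP-sialic acid, to the end of a sugar chain on a protein or lipid. Families are named for the bond they make and the sugar they extend: St6gal and St3gal enzymes cap galactose, St6galnac enzymes extend N-acetylgalactosamine, and St8sia enzymes add sialic acid to another sialic acid. On B cells, the cap made by St6gal1 is the ligand of CD22, an inhibitory co-receptor of the B cell antigen receptor.

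The promoter windows of the genes the results turn on are shown first, so that St6gal1 and St8sia4, the well-counted members that were lowest in JQ1 relative to DMSO, can be set beside St3gal5, the member highest in JQ1 relative to DMSO. Each window runs from 250 bases before to 50 bases after a RefSeq transcript start (GRCm38.p6), on the gene's own strand, 5′ to 3′, and capitals mark CG pairs. RefSeq gave windows for 8 of the 10 members, 11 windows in all, and none for St3gal1 and St3gal2. St6gal1 has 3 starts, at chr16:23224490-23224789, chr16:23225771-23226070 and chr16:23290220-23290519, all on the plus strand. The counts are per gene and cannot tell which start was used. The St8sia4 window is chr1:95667545-95667844 on the minus strand, and the St3gal5 window is chr6:72097358-72097657 on the plus strand.
St6gal1 start 1: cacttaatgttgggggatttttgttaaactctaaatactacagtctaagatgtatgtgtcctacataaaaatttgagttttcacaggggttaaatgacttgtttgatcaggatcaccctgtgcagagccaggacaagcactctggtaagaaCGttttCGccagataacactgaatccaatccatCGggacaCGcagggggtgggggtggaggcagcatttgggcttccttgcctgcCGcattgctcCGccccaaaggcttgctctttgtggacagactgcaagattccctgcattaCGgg
St6gal1 start 2: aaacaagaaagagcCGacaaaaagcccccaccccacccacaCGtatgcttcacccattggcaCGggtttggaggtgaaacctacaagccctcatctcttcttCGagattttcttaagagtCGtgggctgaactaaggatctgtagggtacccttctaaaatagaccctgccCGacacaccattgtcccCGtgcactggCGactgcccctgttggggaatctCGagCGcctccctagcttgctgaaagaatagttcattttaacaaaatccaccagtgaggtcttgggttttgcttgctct
St6gal1 start 3: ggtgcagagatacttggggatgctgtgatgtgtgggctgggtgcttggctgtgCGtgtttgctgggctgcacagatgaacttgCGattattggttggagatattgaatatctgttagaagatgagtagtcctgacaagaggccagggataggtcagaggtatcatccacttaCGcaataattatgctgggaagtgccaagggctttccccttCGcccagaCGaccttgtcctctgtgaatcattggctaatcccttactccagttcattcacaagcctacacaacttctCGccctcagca
St8sia4: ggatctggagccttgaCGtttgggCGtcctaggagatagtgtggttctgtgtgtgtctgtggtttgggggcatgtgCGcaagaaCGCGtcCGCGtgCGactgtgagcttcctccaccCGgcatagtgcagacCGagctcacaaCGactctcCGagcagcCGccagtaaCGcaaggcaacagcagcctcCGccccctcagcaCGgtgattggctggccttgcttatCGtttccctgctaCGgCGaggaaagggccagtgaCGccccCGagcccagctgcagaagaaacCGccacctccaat
St3gal5: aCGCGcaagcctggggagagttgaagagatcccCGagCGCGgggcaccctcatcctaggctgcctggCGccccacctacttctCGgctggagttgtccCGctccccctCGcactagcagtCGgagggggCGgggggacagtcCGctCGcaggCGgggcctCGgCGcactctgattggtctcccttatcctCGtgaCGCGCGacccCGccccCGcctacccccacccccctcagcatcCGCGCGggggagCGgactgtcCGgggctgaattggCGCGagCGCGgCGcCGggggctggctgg
The 3 St6gal1 windows held 7, 10 and 6 CG pairs, near the median of 7 over all 32851 windows of this length. The St8sia4 window held 22 and the St3gal5 window 33, against an upper quartile of 20 over all windows. The St3gal4 window held 31 CG pairs, St3gal3 26, St8sia1 19 and St8sia6 39, and the pair of St3gal6 windows held 3 and 20. Thus members that were lower in JQ1 had windows both poor and rich in CG pairs. A search of both strands for 4 sequence motifs found none of them in any member window. These were the E-box CACGTG (in 7.15% of all windows), the AP-1 site TGACTCA (5.2%), the CRE site TGACGTCA (1.79%) and the ETS site CCGGAAGT (3.89%).

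Libraries held 10347453 to 13049877 reads in genes, and a gene with 0 reads could have had up to 3, which is 0.23 to 0.29 CPM by counting error alone (CPM, a gene's reads per 1000000 reads of the scaled library). The B cell label was set against its markers. Of 10 B cell markers 8 passed the filter, and the 10 summed to 1256 to 1429 CPM in JQ1 libraries and 1970 to 2129 CPM in DMSO libraries. Vpreb1 and Igll1, the surrogate light chain genes of early B cells, did not pass. None of 8 T cell, 5 NK cell or 6 erythroid markers passed, and Cd3e, Cd4, Ncr1 and Hba-a1 had 0 reads. These lists summed to 0.443 to 0.616, 0 to 0.264 and 0.182 to 0.792 CPM in JQ1 libraries, and to 0 to 0.745, 0.248 to 0.993 and 0.497 to 0.669 CPM in DMSO libraries. Of 8 myeloid markers, Cd68 and Itgam passed, and the 8 summed to 9.13 to 12.6 CPM in JQ1 libraries and 3.80 to 5.46 CPM in DMSO libraries, with Lyz2 and Ly6g at 0 reads. Of 7 stromal and endothelial markers, Pecam1 and Cdh5 passed, and Col1a1, Col1a2, Dcn, Pdgfrb and Kdr had 0 reads. The 7 summed to 18.8 to 24.3 CPM in JQ1 libraries and 87.3 to 98.7 CPM in DMSO libraries. These sums are thus those of Pecam1 and Cdh5, and Pecam1 alone had a mean of 55.3 CPM over the 8 libraries. The part of these markers in the values below was not tested.

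Of the 8 members past the filter, 5 were lower in both JQ1 libraries than in both DMSO libraries in each line. These were St6gal1, St8sia4, St3gal4, St3gal1 and St3gal6. Over all 12413 genes tested, 29.8% were lower in this way. St3gal3 and St3gal5 were the 2 members higher without overlap in each line, against 28.8% of all genes tested. St3gal2 overlapped between the groups. The median log2 difference of the 8 was -0.71, and that of all genes tested 0.00. These shares and medians are given beside the members only as description, since this contrast chose the members.

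**Figure D1:**
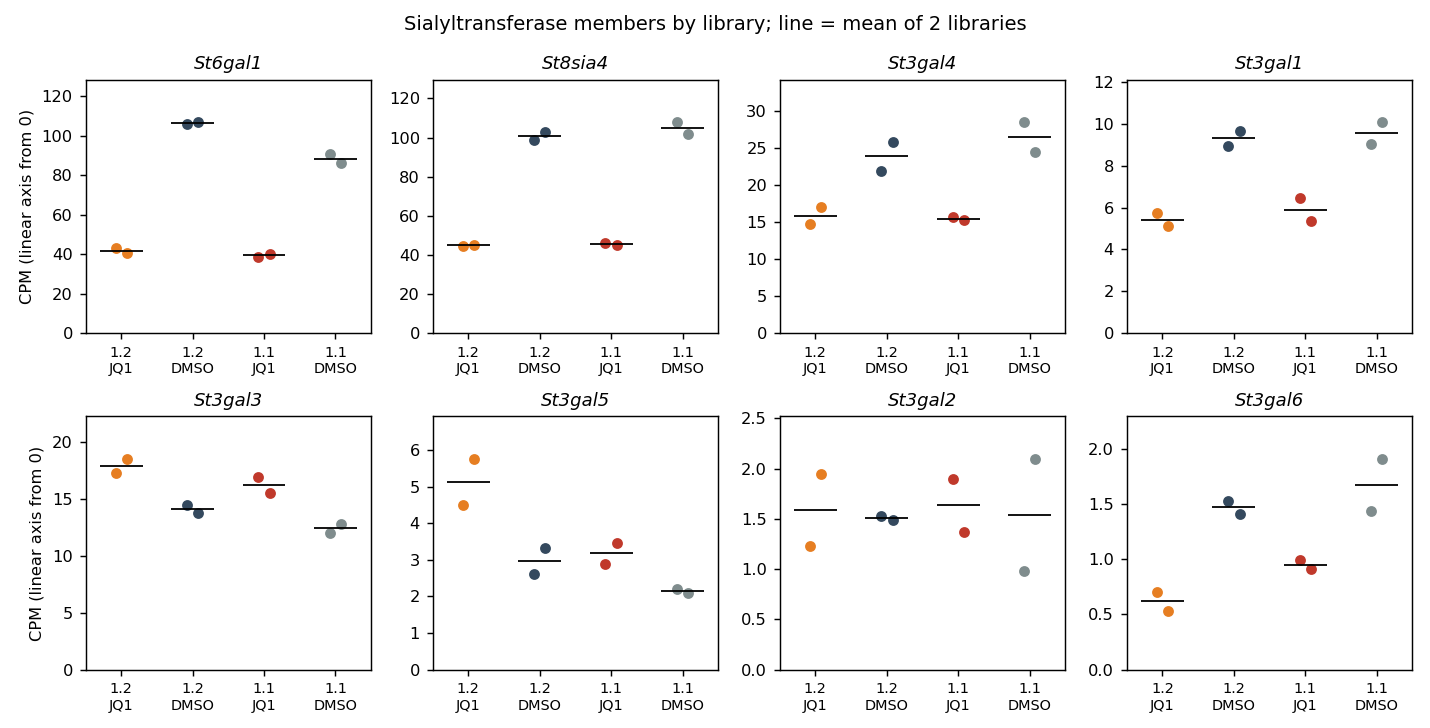
Library-scaled read counts (CPM) of the 8 sialyltransferase genes past the filter, on linear axes that start at 0 and differ between panels; points are libraries and bars are means of 2 libraries. St6gal1 and St8sia4 lie at 38.5 to 45.9 CPM in all 4 JQ1 libraries and at 86.1 to 108 CPM in all 4 DMSO libraries, while St3gal3 and St3gal5 lie higher in JQ1 within each line.

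St6gal1 adds sialic acid to the galactose of N-glycans in the linkage that CD22 binds. It lies on chromosome 16 from 23224740 to 23360350 (GRCm38, plus strand), with 4916 bases of exon. In line 1.2 it had 42.9 and 40.4 CPM in JQ1, against 106 and 107 CPM in DMSO. In line 1.1 it had 38.5 and 40.2 CPM in JQ1, against 90.6 and 86.1 CPM in DMSO. Every JQ1 library lay below every DMSO library of both lines. The log2 difference between JQ1 and DMSO, averaged over the lines, was -1.26 ± 0.045 (SE), a level 2.40-fold lower in JQ1. Levels here are shares of a library's reads, so in RNA from whole cultures fewer cells of a type and less RNA per cell cannot be told apart. Reads counted ranged from 441 to 1294 per library.

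St8sia4 makes polysialic acid, long chains of sialic acid known best on the neural adhesion molecule NCAM. It lies on chromosome 1 from 95587682 to 95667571 (minus strand). In line 1.2 it had 44.5 and 45.2 CPM in JQ1, against 98.6 and 103 CPM in DMSO. In line 1.1 it had 45.9 and 44.9 CPM in JQ1, against 108 and 102 CPM in DMSO. As for St6gal1, the JQ1 libraries all lay below the DMSO libraries, and the replicates lay close together. The averaged log2 difference was -1.19 ± 0.044 (SE), a level 2.28-fold lower in JQ1. The other St8sia members were near absence. St8sia1, which makes the ganglioside GD3, had 6 reads over all 8 libraries, at most 2 in any. St8sia6, which acts mainly on O-glycans, had 1 read in all. Neither gave a difference.

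St3gal4, St3gal6, St3gal1 and St3gal2 cap galactose on glycoproteins and glycolipids. St3gal4 and St3gal6 prefer the galactose of N-acetyllactosamine chains and help to build selectin ligands. St3gal4 lies on chromosome 9 from 35046576 to 35119268 (minus strand). In line 1.2 it had 14.7 and 17.0 CPM in JQ1, against 21.9 and 25.8 CPM in DMSO, and in line 1.1 it had 15.6 and 15.2 CPM in JQ1, against 28.5 and 24.5 CPM in DMSO. The groups did not overlap in either line, and the averaged log2 difference was -0.69 ± 0.078 (SE). St3gal6, on chromosome 16 from 58468125 to 58524243 (minus strand), was scarce, with 6 to 20 reads per library. In line 1.2 it had 0.704 and 0.532 CPM in JQ1, against 1.53 and 1.41 CPM in DMSO, and in line 1.1 it had 0.991 and 0.912 CPM in JQ1, against 1.44 and 1.91 CPM in DMSO. Its averaged log2 difference was -1.01 ± 0.27 (SE), so its size is far less certain than those of St6gal1 and St8sia4.

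St3gal1 caps the core galactose of O-glycans, and St3gal2 caps the same disaccharide mainly on gangliosides. St3gal1, on chromosome 15 from 67102875 to 67176830 (minus strand), had 5.72 and 5.14 CPM in JQ1 in line 1.2, against 8.94 and 9.69 CPM in DMSO. In line 1.1 it had 6.44 and 5.38 CPM in JQ1, against 9.04 and 10.1 CPM in DMSO. All 4 JQ1 libraries lay below all 4 DMSO libraries, and the averaged log2 difference was -0.73 ± 0.11 (SE). St3gal2, on chromosome 8 from 110919922 to 110972480 (plus strand), was the member whose groups overlapped. It had 1.23 and 1.95 CPM in JQ1 in line 1.2, against 1.53 and 1.49 CPM in DMSO, and 1.90 and 1.37 CPM in JQ1 in line 1.1, against 0.987 and 2.10 CPM in DMSO. Its averaged log2 difference was 0.11 ± 0.26 (SE, 95% interval -0.44 to 0.66). At 13 to 23 reads per library, this depth could not show a difference of that size.

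St3gal3 and St3gal5 stood higher in JQ1. St3gal3, which caps galactose of N-glycans with a preference for type 1 chains, lies on chromosome 4 from 117932154 to 118134914 (minus strand). In line 1.2 it had 17.2 and 18.5 CPM in JQ1, against 14.4 and 13.7 CPM in DMSO, and in line 1.1 it had 16.9 and 15.5 CPM in JQ1, against 12.0 and 12.8 CPM in DMSO. The JQ1 libraries lay above all DMSO libraries, with an averaged log2 difference of 0.37 ± 0.078 (SE). St3gal5 makes GM3, the first ganglioside from which most others are built, and lies on chromosome 6 from 72097592 to 72154571 (plus strand). In line 1.2 it had 4.49 and 5.76 CPM in JQ1, against 2.62 and 3.31 CPM in DMSO, and in line 1.1 it had 2.89 and 3.46 CPM in JQ1, against 2.20 and 2.10 CPM in DMSO. The groups were apart within each line, but across lines 1 of the line 1.1 JQ1 libraries lay between the line 1.2 DMSO libraries. The averaged log2 difference was 0.67 ± 0.18 (SE), from 22 to 65 reads per library.

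Gene models on the opposite strand share exonic bases with 5 of the 10 members, and those at St8sia1 and St8sia6 had 0 reads. The others are 4930581F22Rik with 412 bases of St3gal4, Dcbld2 with 1603 bases of St3gal6, and BC106179 with 200 bases of St6gal1. Over all libraries these 3 had 116, 123 and 151 reads. The strand setting of the counting is not given in the sources used here, so reads in the shared bases cannot be told apart by strand. For St3gal6, with 109 reads in all, this makes the values uncertain.

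St-named sialyltransferases outside the 10 were all of the St6galnac class where they passed the filter, and their JQ1 values also fall under the rule by name. St6galnac4, which completes disialylated O-glycans, had 73.3 and 68.9 CPM in JQ1 in line 1.2, against 114 and 111 CPM in DMSO. In line 1.1 it had 70.3 and 67.3 CPM in JQ1, against 120 and 106 CPM in DMSO. All JQ1 libraries lay below all DMSO libraries, with an averaged log2 difference of -0.69 ± 0.045 (SE). St6galnac6, which acts on gangliosides, had 25.6 and 24.9 CPM in JQ1 in line 1.2, against 29.0 and 30.1 CPM in DMSO, and 30.7 and 28.3 CPM in JQ1 in line 1.1, against 38.5 and 35.0 CPM in DMSO. It was lower in JQ1 within each line, by an averaged log2 difference of -0.27 ± 0.06 (SE). St6galnac3, which sialylates short O-glycans and gangliosides, had 4.31 and 4.08 CPM in JQ1 in line 1.2, against 2.08 and 2.24 CPM in DMSO, and 7.35 and 5.29 CPM in JQ1 in line 1.1, against 1.67 and 2.39 CPM in DMSO. Its averaged log2 difference of 1.31 ± 0.18 (SE) was the highest of the 11 sialyltransferases past the filter. St6galnac2 had at most 11 reads in any library and St8sia3 had 3 reads in all, and St6gal2, St6galnac1, St6galnac5, St8sia2 and St8sia5 had 0 reads in every library.

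**Figure D2:**
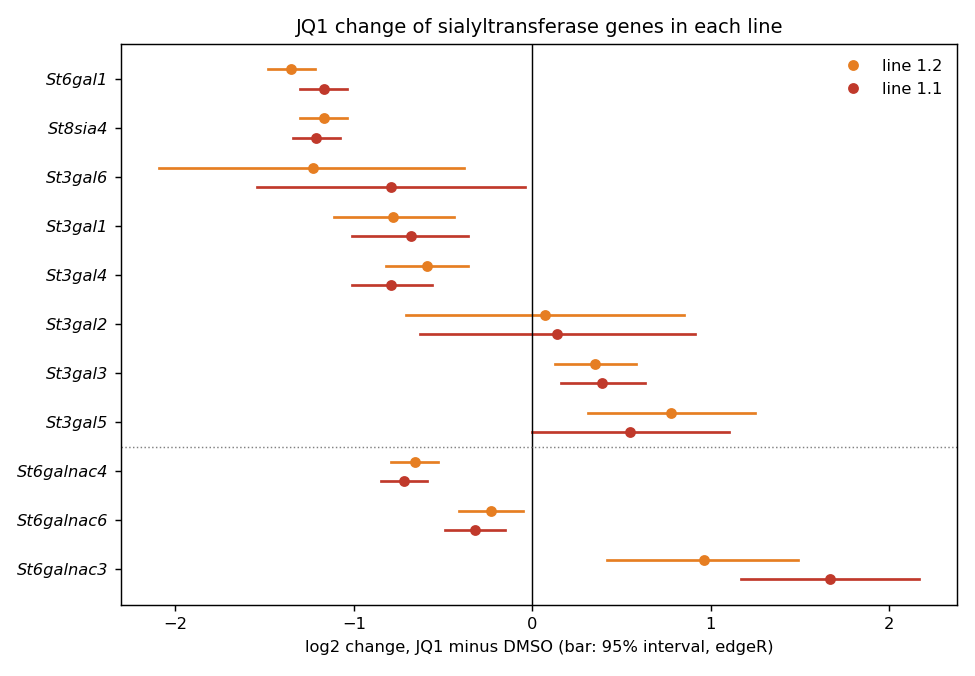
Log2 difference between JQ1 and DMSO for the 11 sialyltransferase genes past the filter, in line 1.2 (orange, upper) and line 1.1 (red, lower) of each pair; points are edgeR estimates, bars are 95% intervals, and the dotted line parts the 8 members from the 3 other genes. St6gal1 lies at -1.35 in line 1.2 and -1.17 in line 1.1, St8sia4 at -1.17 and -1.21, and the intervals of the pair overlap for each gene drawn.

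Whether the lines responded alike was tested as the JQ1 difference in line 1.2 minus that in line 1.1, a contrast the choice of members did not use. By edgeR's quasi-likelihood test with Benjamini-Hochberg adjustment over all 12413 genes, 0 of the 8 members passed the threshold of 0.05, and 0 had an unadjusted p under 0.05. DESeq2 and limma-voom also called 0 of the 8. The background was small too, since 0.113% of all genes passed, 14 in number. The lowest adjusted p among the members was 0.624 (edgeR), for St6gal1, whose interaction was -0.18 ± 0.092 (SE, 95% interval -0.37 to 0.01). For St8sia4 the interval of the interaction was -0.14 to 0.23. For the scarce St3gal6 it ran from -1.60 to 0.71 and for St3gal2 from -1.16 to 1.02, so large differences between the lines in these genes were not detectable at this depth.

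In DMSO, 1 of the 8 members differed between the lines, against 6.77% of all genes tested. St6gal1 was higher in line 1.2, at 106 and 107 CPM in DMSO, than in line 1.1, at 90.6 and 86.1 CPM in DMSO. The log2 difference was 0.27 ± 0.056 (SE, 95% interval 0.15 to 0.38), with an adjusted p of 0.00385 (edgeR's quasi-likelihood test, Benjamini-Hochberg). Both line 1.2 libraries lay above both line 1.1 libraries. The call was lost with DESeq2, at an adjusted p of 0.0726, and without line 1.2 DMSO replicate 2, at an edgeR adjusted p of 0.0695. For St8sia4 the same difference was -0.06 (95% interval -0.17 to 0.06), for St3gal4 it was -0.16 (95% interval -0.36 to 0.05), and for St3gal5 it was 0.46 (95% interval -0.09 to 1.02). Outside the members, St6galnac6 was lower in line 1.2, with a log2 difference of -0.32 ± 0.081 (SE) and an edgeR adjusted p of 0.0172. That call was lost with DESeq2 (adjusted p = 0.202), with only the 4 DMSO libraries fitted (0.0532), and without line 1.1 DMSO replicate 1 (0.0985), line 1.2 DMSO replicate 1 (0.137) or line 1.2 DMSO replicate 2 (0.0901).

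Under JQ1, 0 of the 8 members passed the same edgeR test between the lines, against 6.40% of all genes tested. At an unadjusted p under 0.05 there was 1, St3gal5, and DESeq2 and limma-voom called 0. St3gal5 had 4.49 and 5.76 CPM in line 1.2 JQ1 libraries, against 2.89 and 3.46 CPM in line 1.1 JQ1 libraries, which do not overlap. The log2 difference was 0.69 ± 0.22 (SE, 95% interval 0.23 to 1.16), with an edgeR adjusted p of 0.0682. The call was gained with no filter on low counts, with only the 4 JQ1 libraries fitted, and without either line 1.1 DMSO library, at edgeR adjusted p values of 0.0301, 0.0357, 0.0393 and 0.0388. With the level of Gm42418, a gene that overlaps ribosomal RNA repeats, as a covariate, the log2 difference was 0.41 at an edgeR adjusted p of 0.742. Gm42418 had 1295.6 and 2643.8 CPM in line 1.2 JQ1 libraries, against 474.6 and 493.1 CPM in line 1.1 JQ1 libraries. In DMSO libraries it had 340.6 to 976.5 CPM. The covariate was thus highest in the line 1.2 JQ1 group. Here and below, it cannot be fully told apart from differences that involve that group. St6gal1, which differed between the lines in DMSO, had a log2 difference of 0.08 ± 0.072 (SE) in JQ1, with an edgeR adjusted p of 0.564, and the change of this difference is the interaction above.

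**Figure D3:**
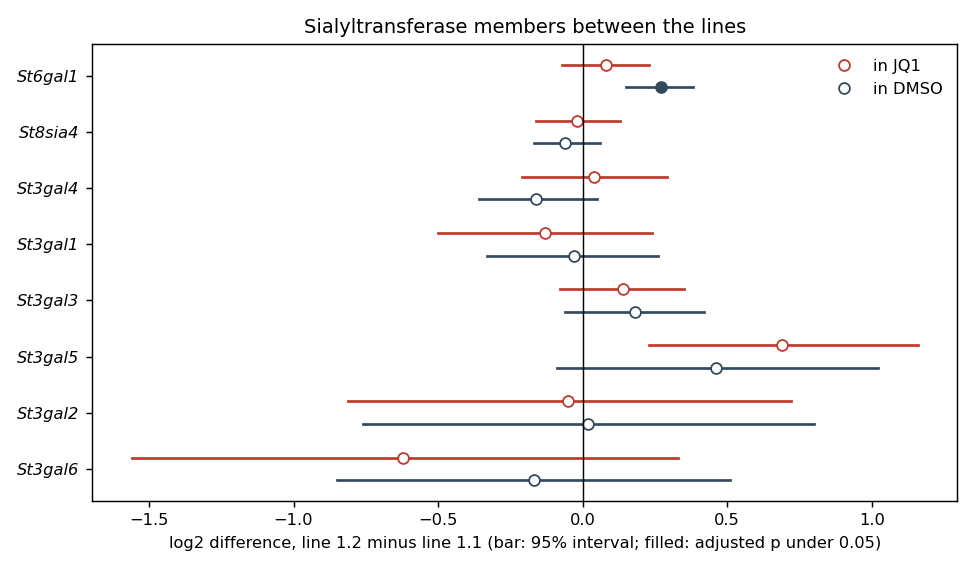
Log2 difference of the 8 members, line 1.2 minus line 1.1, in JQ1 (red, upper) and in DMSO (dark blue, lower); points are edgeR estimates, bars are 95% intervals and filled points passed an adjusted p of 0.05. The one filled point is St6gal1 in DMSO at 0.27, and the interval of St3gal5 in JQ1 runs from 0.23 to 1.16.

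To compare levels between genes, counts were divided by length and expressed as TPM, a gene's transcripts per 1000000 of the library. Length was the union of a gene's exons. In JQ1, St6gal1 was still the most abundant member at 17.7 to 19.8 TPM, followed by St3gal3 at 12.7 to 15.0 TPM and St3gal4 at 11.4 to 13.1 TPM, whose ranges overlap. St8sia4 followed at 5.04 to 5.17 TPM, then St3gal5 at 2.50 to 4.95 TPM, St3gal1 at 1.69 to 2.13 TPM, St3gal2 at 0.556 to 0.870 TPM and St3gal6 at 0.194 to 0.364 TPM. The order in JQ1 was thus led by St6gal1 and a pair of St3gal enzymes. In DMSO, St6gal1 led at 42.1 to 52.6 TPM, ahead of St3gal4 at 17.9 to 23.4 TPM. St8sia4 at 11.7 to 12.9 TPM and St3gal3 at 10.4 to 12.4 TPM came next and overlap. They were followed by St3gal1 at 3.12 to 3.55 TPM, St3gal5 at 1.93 to 3.05 TPM, and an overlapping pair of St3gal2 at 0.469 to 1.0 TPM and St3gal6 at 0.550 to 0.743 TPM. Thus St3gal5 ranked above St3gal1 in JQ1 and below it in DMSO, and St3gal3 ranked above St8sia4 in JQ1 without overlap. The rank of St8sia4 rests on the length used. Its exons span 20091 bases in union and 10027 in the longest coding transcript, and with the second length it had 7.83 to 8.05 TPM in JQ1 and 18.2 to 20.0 TPM in DMSO, where it overlaps St3gal4 at 19.3 to 25.2 TPM.

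Summed over all 20 St-named genes, sialyltransferase transcripts made up 92.0 to 96.3 TPM in JQ1 libraries and 150 to 163 TPM in DMSO libraries. The St6gal class, which in these cells was St6gal1 alone, held 18.5 to 20.6% of this sum in JQ1 libraries and 27.4 to 32.6% in DMSO libraries. The St3gal class held 32.8 to 37.2% in JQ1 libraries and 23.6 to 25.6% in DMSO libraries. With this length, St3gal transcripts outweighed St6gal transcripts in every JQ1 library, and St6gal outweighed St3gal in every DMSO library. The St8sia class held 5.24 to 5.49% in JQ1 libraries and 7.46 to 8.16% in DMSO libraries. The St6galnac class overlapped between the groups, at 38.3 to 42.9% in JQ1 libraries and 35.1 to 39.8% in DMSO libraries. With the longest coding transcript as length, the St6gal share was 13.6 to 15.3% in JQ1 libraries and 19.9 to 24.4% in DMSO libraries. The St3gal share was then 27.0 to 30.9% in JQ1 libraries and 20.3 to 21.9% in DMSO libraries, and the order in DMSO turned in line 1.1. There St6gal held 19.9 and 20.6% against 21.2 and 21.9% for St3gal, while in line 1.2 St6gal held 24.4 and 24.2% against 20.3 and 21.7% for St3gal. These are shares of transcripts, and enzyme activity and surface sialic acid were not measured.

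**Figure D4:**
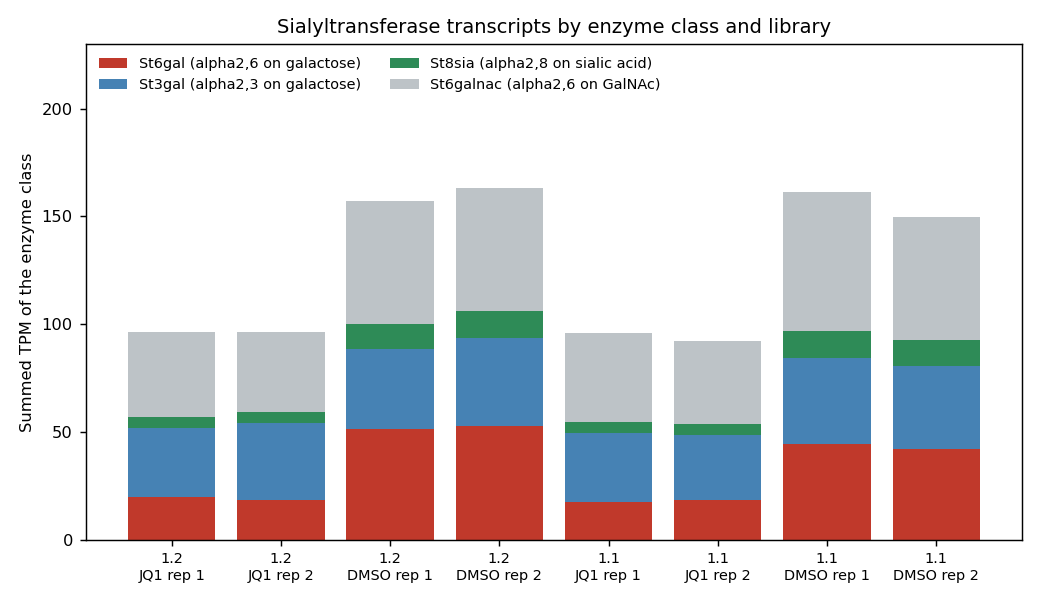
Summed TPM of the sialyltransferase genes in each library, stacked by the bond and sugar of the enzyme class; the axis is linear from 0. Totals are 92.0 to 96.3 TPM in the 4 JQ1 libraries and 150 to 163 TPM in the 4 DMSO libraries, and the St6gal part (red) is 17.7 to 19.8 TPM in JQ1 and 42.1 to 52.6 TPM in DMSO.

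The genes with the pattern most like that of St6gal1 were found by the root mean square difference of log2 CPM, each gene centred on its own mean over the 8 libraries, among 8460 genes of at least 5 CPM. Mplkip was nearest at 0.053, with 11.3 to 13.4 CPM in JQ1 and 28.0 to 34.9 CPM in DMSO. Camk2d followed at 0.086 and Ablim1 at 0.087. Among the other members, St8sia4 was nearest at 0.129, which ranked it 40 of 8460, and the median over all candidates was 0.643. St3gal1 stood at 0.322, St3gal4 at 0.342 and St3gal6 at 0.368, while St3gal3 and St3gal5, which were higher in JQ1, stood at 0.808 and 0.945. This measure takes in the JQ1 against DMSO difference, which chose the members. The distances between members and the rank of St8sia4 are therefore description only.

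The sialic acid pathway outside the family was read from 7 lists, and the tests below are edgeR's quasi-likelihood test with Benjamini-Hochberg adjustment for the averaged JQ1 difference. The lists were drawn up with earlier results of these data known. Most genes are named by the smallest p for this same difference, so the p-values printed are among the lowest of each list. The gene given in full is not always the one with the lowest p. All 6 genes of donor synthesis and transport were tested, and 3 rose and 3 fell, with a median log2 difference of -0.04. Over all genes tested 30.7% rose and 31.3% fell, with a median of 0.00. Gne, whose product starts sialic acid synthesis, fell, with 107 ± 7.33 CPM in JQ1 and 148 ± 2.43 CPM in DMSO in line 1.2, and 88.8 ± 2.59 CPM in JQ1 and 138 ± 2.16 CPM in DMSO in line 1.1 (SD, n = 2). Its log2 difference was -0.55 ± 0.039 (SE, edgeR adjusted p = 1.15e-11). Cmah, the hydroxylase that turns Neu5Ac donor into the Neu5Gc donor common in mice, fell by 0.38 on the log2 scale. Nans, which condenses the sialic acid backbone, rose by 0.20, and Nanp, the phosphatase of the next step, by 0.33. The call of Nanp was lost with the Gm42418 covariate, at an edgeR adjusted p of 0.0767.

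Of 10 genes of sialic acid removal, salvage and O-acetylation, 8 were tested, of which 2 rose and 3 fell, with a median of -0.07. Siae, an esterase that removes acetyl groups from sialic acid, fell, with 0.838 ± 0.308 CPM in JQ1 and 2.86 ± 0.174 CPM in DMSO in line 1.2, and 0.343 ± 0.0987 CPM in JQ1 and 0.934 ± 0.0316 CPM in DMSO in line 1.1 (SD, n = 2, 3 to 33 reads per library). Its log2 difference was -1.57 ± 0.31 (SE). Siae passed the filter only through DMSO libraries, where it was higher, and Neu3, which rose, only through JQ1 libraries. Both are in the counts above, and their changes are given as description with no test. Casd1, which adds those acetyl groups, fell by 0.50 on the log2 scale. Neu1, the lysosomal sialidase, rose by 0.33, while Ctsa, the protective protein that Neu1 needs, fell by 0.30.

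Of 18 genes that build the acceptor glycans, 13 were tested, of which 4 rose and 5 fell, with a median of -0.02. Mgat1, which opens the complex N-glycan branch, fell by 0.41 on the log2 scale, and Mgat2, which acts next, rose by 0.30. Mgat4b, which adds a further branch, fell by 0.75, and C1galt1c1, the chaperone of the core 1 O-glycan synthase, fell by 0.57. Of 7 ganglioside genes 5 were tested, of which 2 rose and 3 fell, with a median of -0.17. B3gnt5, which starts the lacto-series glycolipids from lactosylceramide, the lipid St3gal5 also uses, had 1.10 ± 0.182 CPM in JQ1 and 6.76 ± 0.504 CPM in DMSO in line 1.2 (SD, n = 2). In line 1.1 it had 0.306 ± 0.0826 CPM in JQ1 and 3.67 ± 0.355 CPM in DMSO (SD, n = 2). Its log2 difference was -3.07 ± 0.23 (SE, edgeR adjusted p = 3.05e-11), from 3 to 86 reads per library. B4galnt1, which extends GM3 to the complex gangliosides, fell by 0.85, and B4galt5, which makes lactosylceramide, rose by 0.27. Ugcg, which makes glucosylceramide, fell by 0.17, and its call was lost with the Gm42418 covariate at a log2 difference of -0.05 and an edgeR adjusted p of 0.51.

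Of 10 genes for other caps, which can compete with sialic acid for the same chain ends or decorate the core, 4 were tested, of which 1 rose and 2 fell, with a median of -0.29. Ggta1, which caps galactose with a further galactose, had 18.1 ± 0.532 CPM in JQ1 and 50.9 ± 5.49 CPM in DMSO in line 1.2, and 16.0 ± 0.252 CPM in JQ1 and 44.4 ± 1.15 CPM in DMSO in line 1.1 (SD, n = 2). Its log2 difference was -1.48 ± 0.065 (SE, edgeR adjusted p = 1.03e-15). Fut8, which adds core fucose, fell by 0.32, and Fut11 rose by 0.34, a call lost with the Gm42418 covariate at an edgeR adjusted p of 0.0724. B4galnt2 had a log2 difference of -0.25 ± 0.2 (SE) and was not called.

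Of 12 sialic acid-binding receptors, 4 passed the filter, Mag only through its DMSO libraries. These 4 fell, with a median of -1.25. Of all genes tested, 31.3% fell and 30.7% rose, with a median of 0.00. Cd22 had 61.6 ± 3.81 CPM in JQ1 and 168 ± 3.32 CPM in DMSO in line 1.2, and 41.7 ± 2.47 CPM in JQ1 and 138 ± 5.02 CPM in DMSO in line 1.1 (SD, n = 2). Its log2 difference was -1.59 ± 0.043 (SE, edgeR adjusted p = 1.19e-19). Transcripts of the receptor and of St6gal1, which makes its ligand, were both lower in every JQ1 library than in every DMSO library. Over all genes tested, 29.8% were lower in both JQ1 libraries than in both DMSO libraries within each line. The fall of St6gal1 belongs to the contrast that chose the members, so the pair is given only as description. Siglecg, another inhibitory sialic acid receptor of B cells, fell by 1.22 on the log2 scale. Mag fell by 1.28, from 4 to 23 reads per library. Because it passed the filter only through the group where it was higher, its fall is description only. The call of Mag was also lost with the Gm42418 covariate, at an edgeR adjusted p of 0.0909. Of 10 surface proteins that carry sialylated glycans, all were tested, of which 1 rose and 8 fell, with a median of -0.60, against the same shares of all genes. Spn (CD43), a mucin-like protein rich in O-glycans, fell by 1.52, Selplg, the ligand of P-selectin, by 1.11, Cd79b of the B cell receptor by 0.85 and Ptprc (CD45) by 0.74. The lists overlap with the B cell markers in Cd22, Cd79a and Cd79b.

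**Figure D5:**
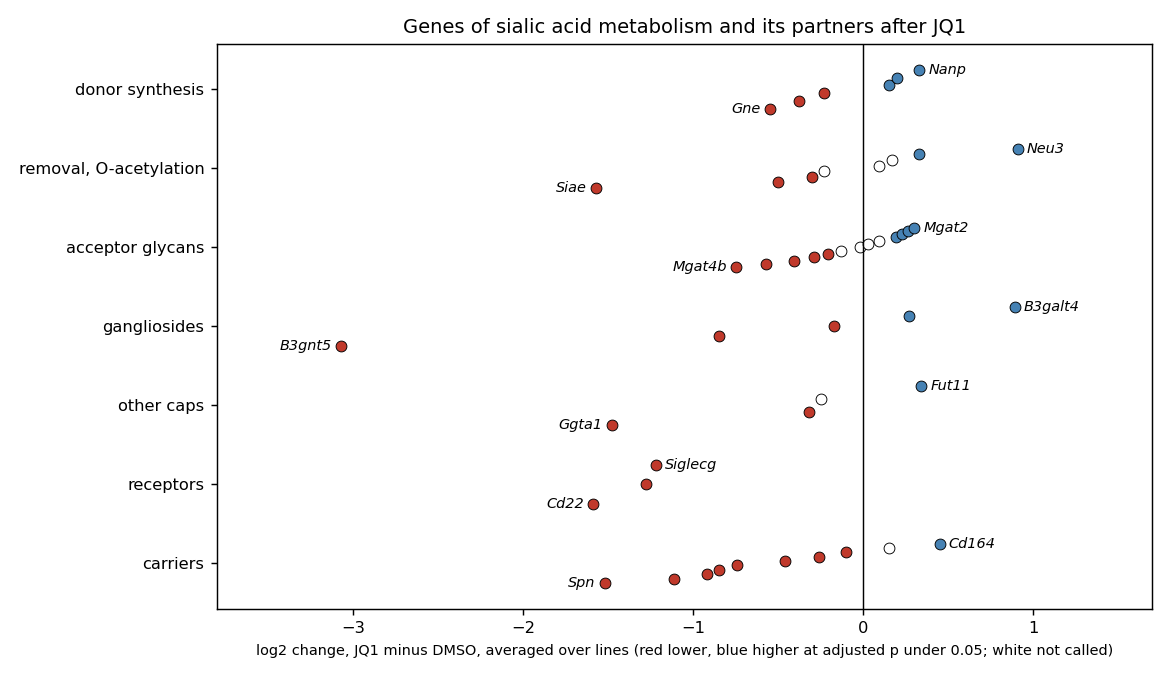
Log2 difference between JQ1 and DMSO, averaged over the lines, for the genes of the 7 sialic acid pathway lists that passed the filter and are reported here; red points fell and blue points rose at an edgeR adjusted p under 0.05, white points were not called, and height within a list only separates points. The receptors drawn lie between -1.59 and -1.22, while the 6 donor synthesis genes lie on both sides of 0 around a median of -0.04.

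Between the lines in DMSO, further genes of these lists differed by the same edgeR test. Receptors had 2 of 4 tested genes called, removal 1 of 8, gangliosides 1 higher and 1 lower of 5, and carriers 2 of 10. Donor synthesis (6 tested), acceptor glycans (13) and other caps (4) had 0. Over all genes tested the share was 6.77%. Cd22 was higher in line 1.2 by a log2 difference of 0.28 ± 0.053 (SE, edgeR adjusted p = 0.00134), close in size to that of St6gal1. Siae was higher in line 1.2 by 1.60 ± 0.33 (SE, edgeR adjusted p = 0.00279) and B3gnt5 by 0.89 ± 0.2 (SE, edgeR adjusted p = 0.00624). B4galnt1 was lower in line 1.2, with a log2 difference of -0.27 (edgeR adjusted p = 0.0101), as were Spn at -0.32 (0.00348) and Podxl at -0.37 (0.0313). The call of Cd22 held under every alternative run. With DESeq2 the others named here were not called, at adjusted p values of 0.139 for Siae, 0.243 for B3gnt5, 0.0672 for B4galnt1, 0.0647 for Spn and 0.384 for Podxl. Without line 1.2 DMSO replicate 2, edgeR's adjusted p was 0.11 for B3gnt5, 0.234 for B4galnt1, 0.0695 for Spn and 0.151 for Podxl. B4galnt1 was also lost without line 1.1 DMSO replicate 2 (0.071), with the Gm42418 covariate (0.0587) and with only the 4 DMSO libraries fitted (0.0542). Podxl was also lost without line 1.1 DMSO replicate 1 (0.0799), without line 1.2 DMSO replicate 1 (0.165) and with only the 4 DMSO libraries fitted (0.071). The calls of B4galnt1 and Podxl did not pass a threshold of 0.01.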

How the data were processed

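The deposited values are whole-number counts of reads per Ensembl gene, which the authors did not normalise. Per the submitters' processing notes, FastQC, cutadapt 1.7, TopHat, Bowtie2, HTSeq and limma were used with the GRCm38 (mm10) genome; for the remaining versions, the annotation release and the strand setting, nothing is stated (not given in the sources used here). Libraries were made with a TruSeq RNA kit, per the labels' protocols. HTSeq's summary lines were left out of library sizes. They held 12.3 to 14.4% of reads in no gene and 1.54 to 1.67% ambiguous reads. Symbols (42462 of 43629 genes), coordinates and exon lengths are from GENCODE M21 on GRCm38, and promoter windows from RefSeq.

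Counts were fitted in R 4.3.3 with edgeR 4.0.16 (filterByExpr defaults, a minimum count of 10 and total of 15, TMM scaling, 4 group means, all 8 libraries, 4 residual degrees of freedom) and tested two-sided with the quasi-likelihood F test, adjusted by Benjamini-Hochberg over 12413 genes at 0.05. The fit was tested on simulated data. Standard errors come from the F statistic. CPM uses TMM-scaled library sizes. Differences are relative to library totals, so a change in total RNA per cell would not show.

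The members and lists were chosen with earlier results of these data known. Named pathway genes are, for each list, up to 4 with the smallest p for the averaged JQ1 difference and at least 1 CPM. Outside this rule, Podxl is named for its call between the lines in DMSO, and Neu3 for how it passed the filter. Some genes that this rule names are not reported here. Alternatives were DESeq2 1.42.0, limma-voom 3.58.1, other scalings and filters, a replicate block, Gm42418 as a covariate, a threshold of 0.01, only the 4 libraries compared, and each library left out; the second gene length was added after seeing the data.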

Additional observations from a re-analysis of the deposited data

How the results depend on the processing

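The 8 members' averaged JQ1 differences were of one sign under every setting run except for St3gal2, which ranged from -0.62 (with the Gm42418 covariate) to 0.40. St6gal1 ranged from -1.3 to -1.2, St8sia4 from -1.23 to -1.14, St3gal4 from -0.74 to -0.61, St3gal1 from -0.80 to -0.67, St3gal6 from -1.2 to -0.91, St3gal3 from 0.28 to 0.40 and St3gal5 from 0.51 to 0.76. The members called between the lines depended on the setting: in DMSO 0 with DESeq2, and in JQ1 1 with no filter and 1 with only the 4 libraries compared. Leaving out 1 library gave 0 to 1 in DMSO (0 without line 1.2 DMSO replicate 2), 0 to 1 in JQ1 (1 without line 1.1 DMSO replicate 1 or 2) and 0 for the interaction. The lone library of a group was then assumed to vary like the others. Genes with few reads, St3gal2, St3gal5 and St3gal6, are limited by depth.

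Counts over all genes moved more. JQ1 in line 1.2 gave 2908 genes with the Gm42418 covariate. The interaction gave 80 genes with no filter, 8 with the stricter filter (5 CPM in 2 libraries), 8 with DESeq2, 8 with the covariate and 7 at a threshold of 0.01. The line difference in DMSO gave 306 with DESeq2, 376 at 0.01 and 441 with only 4 libraries, against 840. The line difference in JQ1 gave 327 with DESeq2, 343 with the covariate, 370 at 0.01 and 1697 with only 4 libraries, against 795. Pathway genes that differed between the lines in DMSO, the other sialyltransferases included, were 8 in the main fit. Over all genes tested the share was 6.77%. The 8 became 2 with DESeq2, 5 at 0.01 and 5 with only 4 libraries. The cause of these moves was not tested.

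With 1 library left out, counts ranged from 6966 to 7744 for averaged JQ1, 4825 to 6706 for JQ1 in line 1.2, 4885 to 6205 for JQ1 in line 1.1, 308 to 1314 for lines in DMSO, 273 to 1516 for lines in JQ1 and 7 to 445 for the interaction. Pathway genes, the other sialyltransferases included, ranged from 39 to 44 for JQ1 and 3 to 11 for lines in DMSO. The JQ1 values of the other sialyltransferases fall under the rule by name, so the JQ1 range is description only. In the main fit, 30.7% of all genes tested rose and 31.3% fell for JQ1, and 6.77% differed between the lines in DMSO. The interaction gave 445 without line 1.1 DMSO replicate 1 and 42 without replicate 2, and 7 to 8 without line 1.1 JQ1 replicate 1, line 1.2 JQ1 replicate 2 or line 1.2 DMSO replicate 1. Lines in DMSO gave 1314 without line 1.1 DMSO replicate 1, 380 without line 1.2 DMSO replicate 1 and 308 without replicate 2, which also left 3 pathway genes. Lines in JQ1 gave 273 to 420 without any 1 JQ1 library and 1515 and 1516 without a line 1.1 DMSO library.

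Differences between replicates 1 and 2 correlated at -0.03 to 0.078 between groups. Whether libraries with the same replicate number were handled together is not stated in the labels. With a replicate block the interaction gave 26 genes against 14, and no member's call changed. Scatter between replicates was also measured as the chi-square of their read counts over its degrees of freedom. It was 4.48 in line 1.1 DMSO, 1.425 in line 1.1 JQ1, 2.281 in line 1.2 JQ1 and 1.888 in line 1.2 DMSO. The main fit used one estimate of the spread for all 4 groups, which limits the tests between lines and of the interaction.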
